A study of Homo sapiens with 4 samples.

Results

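Coding-exon peaks are regions of open chromatin whose midpoint lay in the coding sequence of a protein-coding gene and more than 5 kb from every protein-coding transcript start (GENCODE 44 basic annotation, GRCh37/hg19). They numbered 1173 of the 139872 consensus peaks, or 0.839%. Of the 2484 peaks with a coding midpoint at any distance, the other 1311 lay within 5 kb of a start and were left out. The rule used position alone, and no count entered it.

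Accessibility was profiled by ATAC-seq, which tags open DNA with adaptors carried by the Tn5 transposase, in SEM cells. SEM is a leukemia line of B cell precursor type that carries an MLL rearrangement, and all of its cells here stably expressed dCas9-KRAB, the nuclease-dead Cas9 joined to the KRAB repressor domain. In 2 libraries the cells carried sgFLT3-DE-1, a guide RNA directed at a HOXA9-bound enhancer far upstream of FLT3, and in 2 they carried the non-target guide sgNT. The labels do not state whether the dCas9-KRAB line was 1 clone or whether replicates came from separate cultures, so the p-values reflect spread among the libraries at hand, which may be technical. Depth ranged from 2683477 to 4831164 counts in peaks per library. Of 12 marker genes of B cell precursors, 10 had a promoter peak (median level 7.08 normalized CPM), and CD79A and BLNK had none. A promoter peak was found for 2 of 6 T cell genes (BCL11B at 12.7 CPM and CD3E at 0.462 CPM) and for 2 of 7 myeloid genes (MPO at 4.48 CPM and LYZ at 1.31 CPM), and CD3D, CD3G, CD2, ELANE and CD14 had none. Of the erythroid genes, 1 had a promoter peak, whose 193.0 CPM exceeded the highest B cell precursor value of 36.7 CPM, and what these peaks contribute to the results was not tested.

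The coding exons of a gene specify its protein, and the same DNA can also hold binding sites for transcription factors. Enhancers that overlap exons are known for several genes, and a coding exon can also lie near the start of an unannotated or noncoding transcript. Coding sequence is richer in G and C than the introns around it, and sequence dense in CpG dinucleotides is typical of promoters and of regions bound by Polycomb proteins.

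The sequences that follow are the central 200 bases of the 6 peaks with the highest levels, of a CpG-dense peak in PRDM8 and of the peaks in MSH6 and TTLL2 with the smallest p-values in each direction, the last in full. They are read from GRCh37 on the plus strand, 5′ to 3′, with annotated coding bases in capitals and all others in lower case. The positions are ANK2 chr4:114276981-114277180, CTTNBP2 chr7:117432360-117432559, MAGI2 chr7:77648987-77649186, KIF24 chr9:34257188-34257387, PRSS12 chr4:119234408-119234607, GNAI1 chr7:79846630-79846829, PRDM8 chr4:81123561-81123760, MSH6 chr2:48025831-48026030 and TTLL2 chr6:167752133-167752268. CTTNBP2, MAGI2, KIF24 and PRSS12 are genes of the minus strand and the others of the plus strand.
ANK2: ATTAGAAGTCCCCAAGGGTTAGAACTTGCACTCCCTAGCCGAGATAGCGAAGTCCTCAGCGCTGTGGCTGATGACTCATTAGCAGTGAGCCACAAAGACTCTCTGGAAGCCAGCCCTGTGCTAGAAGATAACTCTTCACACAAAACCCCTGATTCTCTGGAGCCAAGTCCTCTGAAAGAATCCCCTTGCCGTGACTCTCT
CTTNBP2: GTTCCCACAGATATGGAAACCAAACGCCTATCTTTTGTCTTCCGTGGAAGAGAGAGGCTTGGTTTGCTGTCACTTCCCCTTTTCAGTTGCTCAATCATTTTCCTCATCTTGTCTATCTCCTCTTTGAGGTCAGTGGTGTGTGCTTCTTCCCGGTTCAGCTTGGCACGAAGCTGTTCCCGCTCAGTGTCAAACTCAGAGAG
MAGI2: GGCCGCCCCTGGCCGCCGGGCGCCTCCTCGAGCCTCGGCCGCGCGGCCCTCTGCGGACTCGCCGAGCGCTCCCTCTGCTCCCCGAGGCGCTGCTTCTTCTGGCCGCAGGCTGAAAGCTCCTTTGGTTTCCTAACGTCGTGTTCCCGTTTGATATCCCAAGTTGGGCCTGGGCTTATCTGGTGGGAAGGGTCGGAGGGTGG
KIF24: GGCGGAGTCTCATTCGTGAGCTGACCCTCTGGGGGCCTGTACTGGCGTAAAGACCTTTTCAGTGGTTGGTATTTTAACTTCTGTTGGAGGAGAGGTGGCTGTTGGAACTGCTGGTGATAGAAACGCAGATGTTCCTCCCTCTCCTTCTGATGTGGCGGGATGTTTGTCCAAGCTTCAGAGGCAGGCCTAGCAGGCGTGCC
PRSS12: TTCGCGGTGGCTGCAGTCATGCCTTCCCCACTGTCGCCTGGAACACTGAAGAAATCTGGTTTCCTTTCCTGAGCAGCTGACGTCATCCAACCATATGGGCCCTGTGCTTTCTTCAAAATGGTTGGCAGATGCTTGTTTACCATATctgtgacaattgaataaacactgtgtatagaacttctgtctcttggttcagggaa
GNAI1: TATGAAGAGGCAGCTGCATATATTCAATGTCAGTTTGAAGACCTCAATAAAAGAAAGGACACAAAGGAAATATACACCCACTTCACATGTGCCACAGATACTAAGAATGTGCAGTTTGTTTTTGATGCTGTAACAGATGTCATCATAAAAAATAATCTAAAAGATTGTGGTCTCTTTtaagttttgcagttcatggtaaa
PRDM8: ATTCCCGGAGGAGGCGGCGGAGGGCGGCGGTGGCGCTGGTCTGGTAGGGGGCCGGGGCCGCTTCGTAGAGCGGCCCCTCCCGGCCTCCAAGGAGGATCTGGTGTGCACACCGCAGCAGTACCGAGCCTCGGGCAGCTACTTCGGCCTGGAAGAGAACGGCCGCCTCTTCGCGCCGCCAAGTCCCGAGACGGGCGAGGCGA
MSH6: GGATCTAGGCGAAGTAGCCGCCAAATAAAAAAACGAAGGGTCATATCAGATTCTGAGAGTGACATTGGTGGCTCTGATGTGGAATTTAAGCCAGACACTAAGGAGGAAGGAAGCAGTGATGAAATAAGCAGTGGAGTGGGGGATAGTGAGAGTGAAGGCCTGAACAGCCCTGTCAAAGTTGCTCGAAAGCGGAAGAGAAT
TTLL2: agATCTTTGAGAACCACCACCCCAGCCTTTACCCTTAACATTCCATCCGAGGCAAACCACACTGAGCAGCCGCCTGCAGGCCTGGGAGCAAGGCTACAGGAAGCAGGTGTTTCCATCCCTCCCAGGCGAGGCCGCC

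The shown windows of ANK2, CTTNBP2, MAGI2, KIF24, PRDM8 and MSH6 were coding from end to end, although the whole MAGI2 peak of 616 bp held only 515 coding bases. The window of PRSS12 held 145 coding bases and ran into an intron at its right end. The window of GNAI1 held 177 coding bases and passed the end of the last coding exon, where the annotation places the stop codon directly after the capitals. GC content of the windows differed widely, from 34.0% in GNAI1, with no CG dinucleotide, to 72.0% in PRDM8, with 24 of them.

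The coding-exon peaks were small and of modest level. Their median level over the 4 libraries was 2.78 normalized CPM (counts divided by the TMM-scaled total of the library), and the quartiles were 1.53 and 5.91. In the sgFLT3-DE-1 libraries the median CPM was 2.81 and 3.22, and in the sgNT libraries 2.44 and 2.93, so that the ranges of the groups overlapped. The corresponding median raw counts were 10 and 16 under sgFLT3-DE-1 and 8 and 8 under sgNT. Distal intron peaks, which lay more than 5 kb from a coding start as well, had a median of 2.84 CPM, and peaks within 5 kb of a start one of 6.88 CPM. A count was recorded in all 4 libraries for 1115 of the 1173 peaks, and between 3 and 31 peaks had a count of 0 in a given library.

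**Figure D1:**
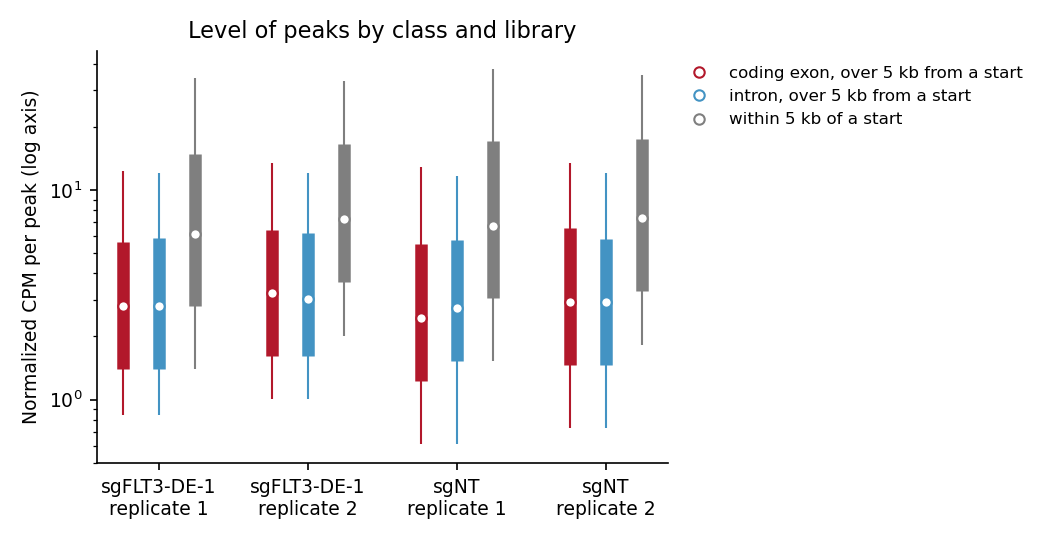
Normalized CPM per peak (log axis) in each of the 4 libraries for coding-exon peaks, distal intron peaks and peaks within 5 kb of a coding start. Circles are medians, thick bars span the quartiles and thin lines the 10th to 90th percentiles over peaks. The medians of coding-exon peaks (2.44 to 3.22 CPM) lay beside those of intron peaks and below those of peaks near starts (6.18 to 7.32 CPM) in every library.

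The width of a coding-exon peak was 171 bp at the median and ranged from 79 to 830 bp, against a median of 173 bp for distal intron peaks and 225 bp near starts. Level rose with width across the peaks. The 159 peaks under 100 bp had a median of 1.05 CPM, the 275 peaks from 150 to under 200 bp one of 3.13 CPM and the 29 peaks of 500 bp or more one of 26.6 CPM. A wider region collects more fragments, and per 100 bp of width the median level was 1.66 CPM, the same to 3 digits as for distal intron peaks (1.66 CPM). The 100 highest peaks held 39.5% of all counts in coding-exon peaks, and the 8 highest held 7.22%.

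The clearest difference from intron peaks was in base composition. GC content had a median of 49.7% (quartiles 44.2% and 57.4%) in coding-exon peaks, 46.5% in distal intron peaks and 62.2% in peaks near starts. The eligible sequence itself differed in the same direction, with 50.1% GC in coding sequence more than 5 kb from a start and 40.9% in intron sequence at that distance. The ratio of observed to expected CpG had a median of 0.314 in coding-exon peaks and 0.185 in intron peaks. With a threshold chosen after the values had been seen (GC of at least 50% and a CpG ratio of at least 0.6), 108 coding-exon peaks were CpG-rich, or 9.21%, against 2.09% of distal intron peaks and 56.0% of peaks near starts. CpG-rich peaks were higher, with a median of 3.94 CPM and a width of 202.5 bp against 2.71 CPM and 169 bp for the other 1065 coding-exon peaks. An annotated transcript start of any kind, noncoding included, lay within 1 kb of 33.3% of the CpG-rich peaks and of 23.3% of the others.

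**Figure D2:**
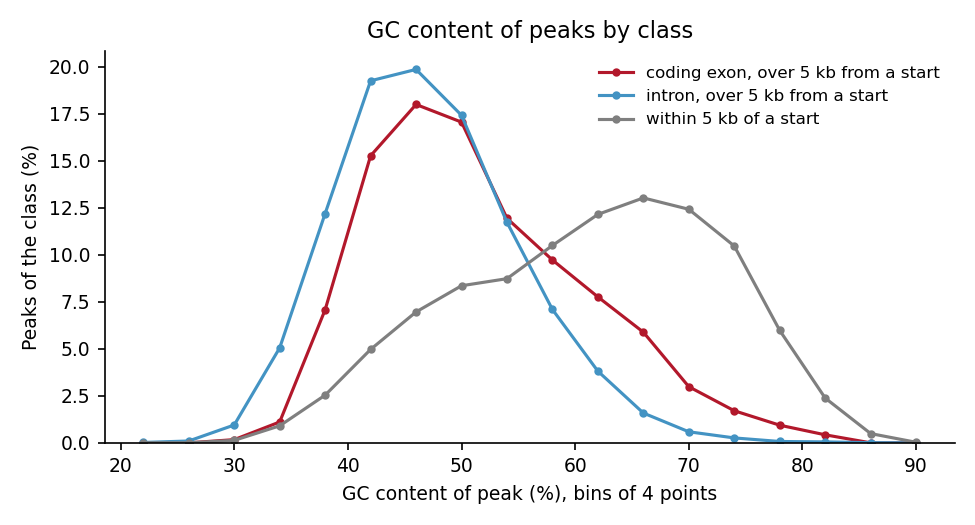
Percentage of peaks of each class (vertical axis) in bins of 4 points of GC content (horizontal axis). Coding-exon peaks were fewer than intron peaks at low GC (7.08% against 12.2% between 36 and 40% GC) and more at high GC (median 49.7% against 46.5%), while peaks near starts were shifted further (median 62.2%).

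Within bins of GC content the coding-exon and intron peaks had similar levels except at the upper end. Between 45% and 50% GC the medians were 3.02 and 3.10 CPM. Above 60% GC the 231 coding-exon peaks had a median of 3.37 CPM and a width of 192 bp, and the 2929 intron peaks one of 2.80 CPM and 166 bp. These are descriptions over peaks, which are not replicates, and no test was applied to them.

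Density was close to that of introns. There were 48.2 coding-exon peaks per Mb of eligible coding sequence (24.4 Mb), against 45.3 per Mb of intron, 40.7 per Mb of intergenic sequence and 50.5 per Mb of untranslated exon sequence at the same distance. Within 5 kb of a start, density was 121.1 peaks per Mb. By chromosome, density was highest on chromosomes 8 (68.5 per Mb) and 4 (68.4 per Mb) and lowest on chromosome 19 (23.4 per Mb, 33 peaks). Many zinc finger genes lie on chromosome 19, and whether they account for its low density was not tested.

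Most coding-exon peaks also covered some noncoding bases. Of the 1173 peaks, 357 (30.4%) lay wholly in coding sequence and 1010 (86.1%) had at least 50% coding bases, and 543 were wider than the coding part of their exon. Internal coding exons held 909 peaks, last coding exons 217, first coding exons 32 and genes with a single coding exon 15. The density was 57.2 per Mb in last, 54.1 in first, 47.6 in internal and 31.0 in single coding exons. Exons with a coding part of 1000 bp or more had the lowest density among length classes, 37.2 per Mb, but their 134 peaks had the highest median level, 4.11 CPM. Densities here divide peaks in exons of any coding transcript by the eligible sequence of 1 transcript per gene, so that they are approximate. The distance to the nearest coding start was 28.5 kb at the median and exceeded 50 kb for 382 peaks. An annotated start of any transcript lay within 1 kb of 284 peaks (24.2%), against 8.30% of distal intron peaks, and 604 peaks were more than 5 kb from every annotated start. These starts include those of coding-gene transcripts outside the basic set. The share of eligible coding sequence within 1 kb of such a start was not computed, so whether the excess is particular to the peaks was not tested.

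**Figure D3:**
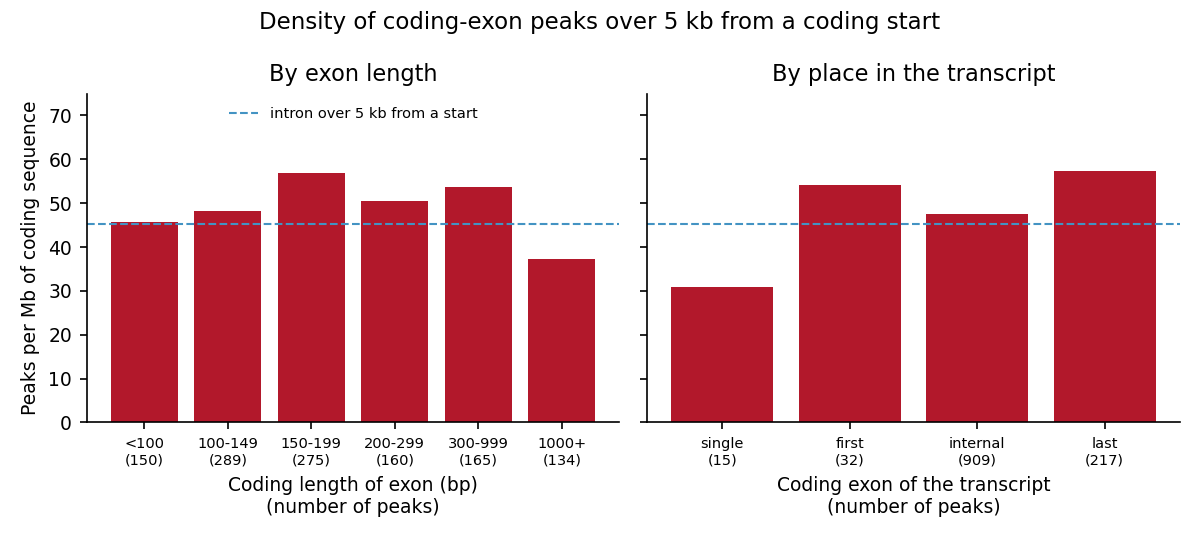
Coding-exon peaks per Mb of eligible coding sequence (bars, from 0) by coding length of the exon in bp (left) and by place of the exon in the transcript (right), with the number of peaks in brackets and the density of distal intron peaks as a dashed line. Exons of 1000 bp or more (37.2 per Mb) and genes with a single coding exon (31.0 per Mb) lay below the line at 45.3 per Mb.

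The highest coding-exon peak lay in ANK2 (ENSG00000145362), which encodes ankyrin-B, an adaptor between membrane proteins and the cytoskeleton. It spanned 763 bp (chr4:114276700-114277462) inside a coding exon of 6255 bp, the giant exon used in neuronal ankyrin, 62.8 kb from the nearest coding start. Its raw counts were 542 and 559 under sgFLT3-DE-1 and 453 and 320 under sgNT, and its normalized CPM 152.2 and 112.6 against 138.4 and 117.1. The sgFLT3-DE-1 values lay on either side of the sgNT values, and the fitted log2 fold change was 0.05 (SE 0.27). The promoter of ANK2 had a peak of 47.5 CPM, less than the peak in the exon.

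The second highest peak lay in CTTNBP2, which encodes a cortactin-binding protein of neurons. It filled 665 bp (chr7:117432128-117432792) of an exon with 1654 coding bp. Counts were 348 and 340 under sgFLT3-DE-1 and 290 and 223 under sgNT, or 84.1 CPM on average, and no promoter peak was found for this gene. An annotated start of some transcript lay 626 bp from the midpoint of the peak. The next, in the last coding exon of the scaffold protein gene MAGI2 (chr7:77648779-77649394), had 260 and 230 counts under sgFLT3-DE-1 and 233 and 156 under sgNT. With 74.5% GC and a CpG ratio of 0.936, it was the highest of the CpG-rich peaks. The groups overlapped for both genes in normalized CPM, and the log2 fold change was -0.04 (SE 0.27) for CTTNBP2 and -0.11 (SE 0.27) for MAGI2.

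The remaining 5 of the 8 highest peaks lay between 37.5 and 40.8 CPM. They were in KIF24, which encodes a kinesin of the centriole, PRSS12, the gene of the secreted protease neurotrypsin, GNAI1, an inhibitory G protein subunit, IRF5, an interferon regulatory factor, and TLN1, the integrin-binding protein talin. In KIF24 (chr9:34257081-34257494) the counts were 154 and 251 under sgFLT3-DE-1 and 99 and 107 under sgNT. Its CPM was 43.3 and 50.6 against 30.2 and 39.2, so that the groups did not overlap, with a log2 fold change of 0.44 (SE 0.26). The IRF5 peak had counts of 111 and 197 versus 144 and 102, and its log2 fold change was -0.20 (SE 0.25). For TLN1 (87 and 232 counts against 129 and 108) the sgFLT3-DE-1 replicates differed more from each other than the groups did, and the log2 fold change was -0.13 (SE 0.28). The GNAI1 peak, with 183 and 151 counts against 144 and 76, changed by 0.17 (SE 0.28).

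Beside ANK2 and CTTNBP2, the widest peaks were those of UNC13A, a gene of synaptic vesicle priming, FIGNL2, a gene of the fidgetin ATPase family, and CELF2, which encodes an RNA-binding splicing regulator. UNC13A had the widest of all, 830 bp over the last coding exon with 70.5% GC, and counts of 37 and 81 under sgFLT3-DE-1 and 64 and 63 under sgNT. FIGNL2 had 780 bp, 77.6% GC and counts of 61 and 145 versus 93 and 98. CELF2 had 697 bp, 50.9% GC and counts of 108 and 123 versus 82 and 72. Coding bases numbered 298 in the UNC13A peak, 780 in the FIGNL2 peak and 125 in the CELF2 peak. In UNC13A both sgFLT3-DE-1 values (10.4 and 16.3 CPM) were below both sgNT values (19.6 and 23.1 CPM), with a log2 fold change of -0.65 (SE 0.29, unadjusted p = 0.034, edgeR), which did not pass the adjusted threshold.

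The 1173 peaks belonged to 1050 host genes, of which 950 had 1 such peak, 87 had 2, and 13 had 3 or more. A promoter peak, within 1 kb of a coding start, was found for 75.9% of the host genes and for 68.3% of the genes with eligible coding sequence but no coding-exon peak. Host genes also had more eligible coding sequence, with a median of 2134 bp against 1095 bp. In host genes without a promoter peak lay 287 coding-exon peaks. In host genes with one, 99 of 886 coding-exon peaks (11.2%) were higher than the promoter peak.

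PRSS12, CRYBG1 and LRBA had 5 coding-exon peaks each. In PRSS12, the 5 peaks lay in 5 of 13 coding exons and ranged from 2.43 to 39.8 CPM, below the promoter peak of 67.8 CPM, and the gene held 28 distal peaks in 73.0 kb. The 4 of them that were tested had log2 fold changes between -0.68 and -0.22. The PRSS12 peak of exon 2 (chr4:119259199-119259476) had counts of 95 and 121 under sgFLT3-DE-1 and 112 and 86 under sgNT. The midpoint of the highest PRSS12 peak lay 77 bp from an annotated start of some transcript. CRYBG1, which encodes a protein with crystallin domains, had no promoter peak, and its peaks lay in 3 exons, of which the exon of 2323 coding bp held 3. Its highest peak (chr6:106967301-106967853, 31.8 CPM) had counts of 106 and 157 under sgFLT3-DE-1 and 109 and 89 under sgNT. Tested CRYBG1 peaks changed by -0.25 to 0.57 and those of LRBA, a gene of vesicle trafficking, by -0.41 to 0.24. Peaks of 1 gene share their locus and are not independent of each other.

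Genes with 4 peaks were DMD, ALPK2, FBN1 and TTN, the genes of dystrophin, an alpha kinase, fibrillin-1 and titin. DMD had 1 high peak over exon 27 (33.8 CPM, counts of 164 and 141 under sgFLT3-DE-1 and 104 and 79 under sgNT) and 3 of 2.07 to 2.20 CPM, and its promoter peak had 6.52 CPM. In ALPK2, without a promoter peak, 3 of the 4 peaks lay in 1 exon of 3391 coding bp, and the highest had 10.6 CPM. All 4 ALPK2 peaks lay near an annotated start of some transcript, at distances from 52 to 453 bp. FBN1 peaks ranged from 1.50 to 6.97 CPM. TTN, with 362 coding exons, had 4 peaks of at most 8.14 CPM. Genes with 3 peaks were MAST4, RAPGEF3, LRP1, RP1, GOT2 and VPS13B.

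**Figure D4:**
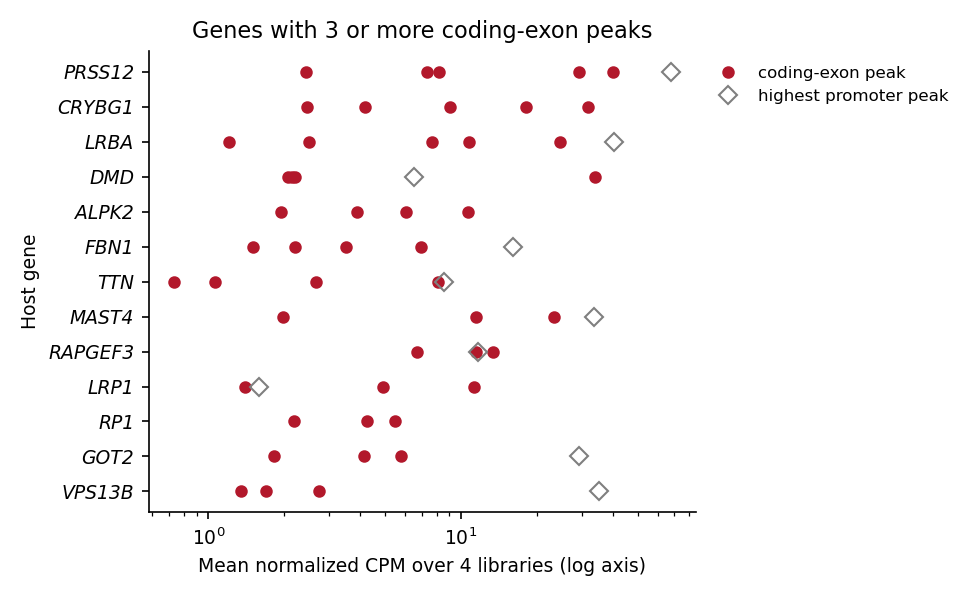
Mean normalized CPM over the 4 libraries (log axis) of each coding-exon peak (filled circles) and of the highest promoter peak (open diamonds) in the 13 genes with 3 or more coding-exon peaks. CRYBG1, ALPK2 and RP1 had no promoter peak, and in DMD a coding-exon peak of 33.8 CPM exceeded the promoter peak of 6.52 CPM.

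The guide comparison asked whether accessibility of these exons differed between sgFLT3-DE-1 and sgNT. Counts of 630 coding-exon peaks (53.7%) passed the filter on low counts and were tested with edgeR. None passed a Benjamini-Hochberg adjusted p of 0.05, against a background of 0.00242% of the 82558 tested peaks, and the smallest adjusted p was 1.00. At an unadjusted p under 0.05, 9 were lower with sgFLT3-DE-1, where the background was 1.12%, and 6 were higher, where it was 0.792%. With a replicate block these counts were 26 and 21 of 630, beside 4.78% and 3.54% of all peaks. They also moved in the fits without 1 library. DESeq2 called 0 at the adjusted threshold as well. At an unadjusted p under 0.05 it gave 1 peak below 0 (background 0.155%) and none above (background 0.0824%). Both sgFLT3-DE-1 libraries were below both sgNT libraries for 68 tested peaks (background 14.2%) and above them for 86 (background 13.4%). The median log2 fold change was 0.03, with 286 peaks below 0 and 344 above it, beside 0.01 over all tested peaks, 0.04 in distal introns and -0.08 within 5 kb of a start. Without 1 library in turn it lay between -0.07 (without sgFLT3-DE-1 replicate 2) and 0.12 (without sgNT replicate 2), and it was also below 0 without sgNT replicate 1 (-0.02). Between single libraries, the median absolute log2 ratio of tested coding-exon peaks was 0.44 for the sgFLT3-DE-1 replicates and 0.38 for the sgNT replicates. Between libraries of different guides it was 0.31 for the replicates numbered 1, 0.28 for those numbered 2, and 0.46 and 0.36 for unlike numbers, so that it was smaller between same-numbered libraries than between replicates of a guide.

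**Figure D5:**
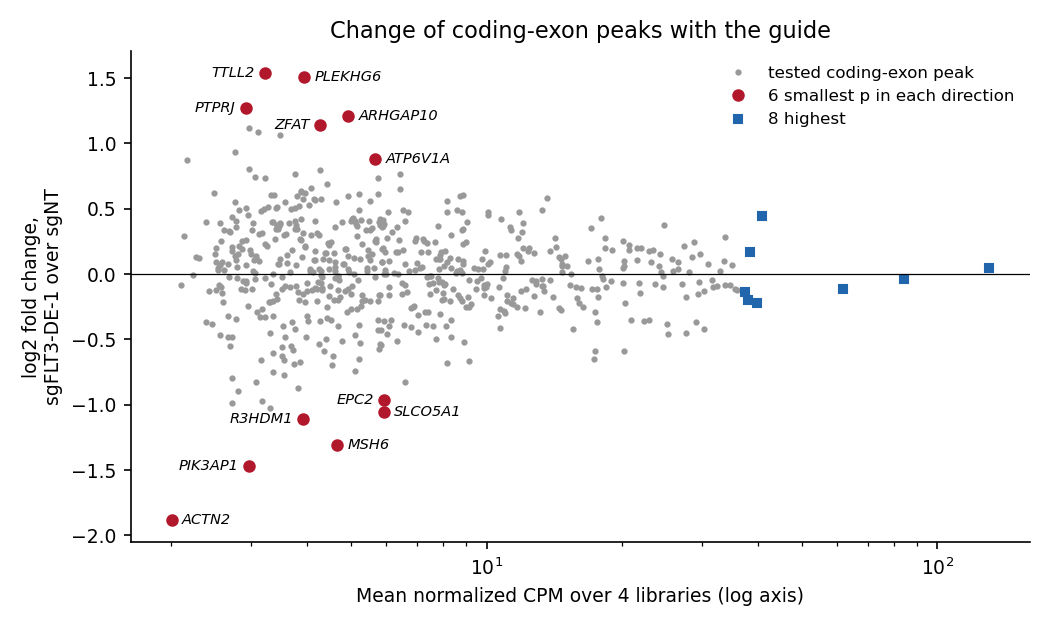
Fitted log2 fold change (sgFLT3-DE-1 over sgNT) against mean normalized CPM (log axis) for the 630 tested coding-exon peaks, with the 6 of smallest p in each direction (red circles, named) and the 8 highest (blue squares) marked. Of the 630 peaks, 616 lay within 1 of no change, and the 14 beyond it had mean levels of 2.00 to 5.91 CPM.

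Among the 9 peaks lower at the unadjusted threshold, the smallest p was in MSH6, a DNA mismatch repair gene. The peak, in an exon of 2545 coding bp (chr2:48025811-48026051), had counts of 8 and 15 under sgFLT3-DE-1 and 21 and 19 under sgNT, and its log2 fold change was -1.31 (SE 0.45, unadjusted p = 0.0075, edgeR). Next came SLCO5A1, a gene of the organic anion transporter family, with 12 and 21 versus 25 and 23 counts. PIK3AP1, which encodes the adaptor BCAP that links the B cell receptor to PI3K, had 2 and 12 versus 16 and 11 counts, so that the groups overlapped in raw counts, though not in normalized CPM. The fourth, in the muscle alpha-actinin gene ACTN2, had the largest fitted decrease of all tested coding-exon peaks, -1.88 (SE 0.80), from 4 and 3 versus 11 and 8 counts. EPC2 and R3HDM1 changed by -0.96 (SE 0.41) and -1.11 (SE 0.49).

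In the other direction TTLL2, a gene of the tubulin ligase family, had counts of 15 and 27 under sgFLT3-DE-1 and 7 and 3 under sgNT. Its log2 fold change of 1.54 (SE 0.56, unadjusted p = 0.010, edgeR) was the largest increase. PLEKHG6 had 15 and 36 versus 2 and 10 counts and changed by 1.51 (SE 0.57), or by 0.66 without sgNT replicate 1 and 3.17 without sgNT replicate 2. ARHGAP10 had 29 and 29 versus 14 and 4 counts. ZFAT, PTPRJ and ATP6V1A, which encode a zinc finger protein, a receptor tyrosine phosphatase and a subunit of the vacuolar proton pump, changed by 1.14, 1.27 and 0.88. All 12 peaks had low counts, their adjusted p in edgeR was 1.00, and they were chosen as the smallest p-values, so that their sizes are those of extremes.

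The share of all counts that fell in coding-exon peaks was 0.615% and 0.687% under sgFLT3-DE-1 and 0.618% and 0.666% under sgNT. The means were 0.651% ± 0.0508 and 0.642% ± 0.0344 (SD, n = 2), and the difference of 0.0090 points was smaller than either SD (exact two-sided permutation test, p = 1.0). With 2 libraries a group, the smallest p this test can give is 0.333. With only the counts of distal peaks in the denominator the difference was -0.026 points (exact p = 1.0). CpG-rich coding-exon peaks had a median log2 fold change of -0.07 (71 tested) and the others one of 0.05 (559 tested), while above 60% GC, whatever the CpG ratio, it was 0.01 for coding-exon peaks, -0.02 for distal intron peaks and -0.10 for all peaks. No coding-exon peak lay in FLT3, in its neighbour PAN3 or in ZNF10, the usual source of the KRAB domain. Sites next to an NGG that differ from the guide at 4 positions or fewer were absent from coding-exon peaks, and the closest site differed at 6.

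In none of the 8 gene lists did a tested coding-exon peak pass the adjusted threshold or an unadjusted p of 0.05 (edgeR). C2H2 zinc finger genes, many of which have 1 long coding exon, were listed by symbol and held 23 peaks in 20 of 526 genes. Their density was 25.4 per Mb of eligible coding sequence, beside 48.2 per Mb over all genes. Over all genes, 1050 were hosts, beside 14817 with eligible coding sequence. The symbol rule left out ZFAT, whose peak had an unadjusted p of 0.023 (edgeR). Of the 11 tested peaks on the list, 5 were below 0 and 6 above, and 0 were called. The highest was in ZNF219 (27.1 CPM, counts of 93 and 132 under sgFLT3-DE-1 and 85 and 81 under sgNT), ahead of ZFP91 (14.6 CPM) and ZNF608 (11.1 CPM). Clustered protocadherins held none in 37 genes, but these had only 0.015 Mb of eligible coding sequence, too little for the absence to be informative. The list of motor proteins, chosen by symbol, held 25 peaks in 21 of 96 genes (51.7 per Mb), although it includes the myomesin gene MYOM1, which encodes no motor. After KIF24, its highest peaks were in DNAH14 (29.5 CPM, counts of 104 and 133 versus 112 and 76) and KIF16B (20.7 CPM, counts of 78 and 110 versus 59 and 57). The midpoint of the DNAH14 peak lay 3 bp from an annotated start of some transcript. Collagens held 6 peaks (33.7 per Mb) and semaphorins and plexins 4 (51.8 per Mb), and none of these lists had a called peak.

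Chromatin regulators held 9 peaks in 9 of 62 genes (26.6 per Mb of eligible coding sequence), of which 4 were tested and 0 called. The highest was in the histone methyltransferase gene KMT2C, with counts of 34 and 48 under sgFLT3-DE-1 and 33 and 28 under sgNT. CHD7, a chromatin remodeller gene, had 23 and 22 versus 22 and 19, and CREBBP, an acetyltransferase gene, 9 and 29 versus 8 and 17. The log2 fold change was -0.08 (SE 0.33) for KMT2C, -0.35 (SE 0.40) for CHD7 and 0.04 (SE 0.50) for CREBBP, each smaller than its SE.

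Haematopoietic transcription factors held 5 peaks in 5 of 38 genes (88.6 per Mb of eligible coding sequence), of which 3 were tested and 0 called. In SPI1, which encodes PU.1, a peak over coding exon 3 (chr11:47381262-47381632, 10.1 CPM) had counts of 40 and 60 under sgFLT3-DE-1 and 22 and 28 under sgNT, and its log2 fold change was 0.48 (SE 0.34), or 0.18 without sgNT replicate 1 and 0.78 without sgNT replicate 2. Both sgFLT3-DE-1 values of SPI1 were above both sgNT values in CPM. In IRF4 a peak of 9.15 CPM (chr6:404893-405354) had 21 and 40 versus 31 and 36 counts, and its log2 fold change was -0.67 (SE 0.35), with both sgFLT3-DE-1 values below both sgNT values in CPM. In AFF1, a frequent fusion partner of MLL, the counts were 10 and 8 versus 10 and 9, with a log2 fold change of -0.55 (SE 0.62), or -0.96 and -0.17 without sgFLT3-DE-1 replicate 1 or 2. RUNX2 and BCL6 held 1 untested peak each. Of the list of B cell and growth factor signalling genes, RPTOR alone held a peak among 38 genes (9.82 per Mb). Its counts were 12 and 23 versus 16 and 16.

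Of the 229 HOXA9-bound regions listed by the study, used as positions only, 2 overlapped a coding-exon peak. The peak in the last coding exon of XKR5 (30.3 CPM) had counts of 109 and 136 under sgFLT3-DE-1 and 102 and 88 under sgNT, and its log2 fold change was -0.13 (SE 0.25). The peak in exon 2 of DNM2, the gene of the membrane fission protein dynamin 2, had 59 and 111 versus 79 and 72 counts, and its log2 fold change was -0.36 (SE 0.27). The DNM2 peak was 617 bp wide and held 74 coding bases.

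Motifs were searched on both strands in the 200 bp around the midpoint of each peak, whatever its width. Coding-exon peaks had a median width of 171 bp, so for most of them this window included flanking bases outside the peak. The percentages count matches anywhere in the window. The RUNX motif TGTGGT was found in 30.3% of coding-exon peaks, 32.8% of distal intron peaks and 28.6% of all peaks. The ETS motif GGAAGT was found in 23.4% of coding-exon peaks, 23.3% of intron peaks and 22.9% of all peaks. The AP-1 motif TGANTCA was found in 9.97%, 12.8% and 11.8%, and the HOX-MEIS motif TGATTNAT in 1.96%, 3.73% and 3.40%. The GC box GGGCGG (10.7%, 4.92% and 12.7%) and the E-box CAGGTG (16.7%, 11.3% and 11.6%) were more frequent in coding-exon than in intron peaks. Of the peaks within 5 kb of a start, 43.0% held the GC box and 12.7% the E-box. A link of either motif to GC content was not tested. The CTCF motif was found in 4.94% of coding-exon peaks, 3.64% of intron peaks and 3.51% of all peaks, and in 0 of the 100 highest coding-exon peaks. The 355 coding-exon peaks with the RUNX motif had a median of 3.56 CPM and the others one of 2.56 CPM. The AP-1 and HOX-MEIS motifs can overlap in letters, and a match does not show that the factor was bound.

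At the limit of the rule, the nearest coding-exon peaks kept were those of ZBTB47 (5.003 kb, 8.73 CPM), PRDM8 (5.004 kb, 35.9 CPM) and EPN3 (5.035 kb, 10.6 CPM). The nearest left out, in XPNPEP2, NIPSNAP3A and TP53INP2, had 13.8, 13.0 and 9.27 CPM.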

How the data were processed

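Per the labels, the samples were 4 ATAC-seq libraries of SEM cells with dCas9-KRAB, 2 per guide. The authors deposited raw counts per consensus peak and the list of the same peaks (hg19). The sources differ on the aligner: the extract protocol has Bowtie2 2.2.9, after cutadapt 1.18, whereas the submitters' processing notes have BWA, after Trim Galore 0.4.4. MACS2 2.1.1.20160309 called peaks in each library, per the supplementary methods on nucleosome-free fragments, and the reproducible peaks of both guides were merged. Whether all fragments were counted, or ends were shifted, the sources do not say. The table holds no peak narrower than 79 bp.

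Peaks were annotated with GENCODE 44 lifted to GRCh37 (63794 basic coding transcripts), with starts printed from 1. Counts over all peaks were tested with edgeR 4.0.16 (R 4.3.3), with TMM factors, filterByExpr (minimum count 10, minimum total 15), the quasi-likelihood test with the guide as the only term, and Benjamini-Hochberg adjustment over 82558 peaks at 0.05. SE was taken as |log2 fold change| divided by √F. Scripts were tested on simulated counts. Alternatives were RLE factors, total counts, loess offsets, a GC correction (span 0.3), DESeq2 1.42.0, limma-voom (limma 3.58.1), no filter, a minimum mean count of 50, a replicate block, other rules for members and leaving out each library. Shares were compared with an exact permutation test (scipy 1.17.1).

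The members and gene lists were chosen with earlier results of these data known. Named were the 8 highest and 5 widest peaks, peaks of the 6 genes with most, up to 3 peaks per gene list, the 6 lowest p-values on either side of 0, HOXA9-bound members, those at the 5 kb limit and, had there been any, peaks past the threshold, in FLT3, PAN3 or ZNF10, or like the guide.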

Additional observations from a re-analysis of the deposited data

How the results depend on the processing

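No coding-exon peak was called under the alternative fits or the other membership rules. The number of members was 1325 beyond 2 kb, 970 beyond 10 kb and 1020 when the midpoint rule was replaced by at least 50% coding bases, and 604 when every annotated start was kept 5 kb away. The median level was 1.66 CPM per 100 bp. The median log2 fold change lay between 0.016 and 0.052 under alternatives that kept all libraries and between -0.066 and 0.12 without 1 library. The difference in share was -0.026 points with distal peaks in the denominator, and -0.027 to 0.045 points without 1 library.

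Replicate numbers are in the titles, but nothing says that they pair the libraries. Same-numbered libraries deviated together (correlation 0.397). With the replicate block 0 coding-exon peaks were called, while 75 of all peaks were called lower and 18 higher (0 and 2 without it), and the median change of coding-exon peaks was 0.016. With the block and the GC correction 0 coding-exon peaks were called, and 8 of all peaks were called lower and 12 higher.

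For 59 named fold changes, 743 values under the alternatives kept direction and side of the threshold and 45 changed sign, none past the threshold. Without 1 library, 46 of the 59 moved by over 1.5 times in at least 1 fit. The cause was not tested. With the GC correction, log2 fold changes turned to 0.073 for MAGI2, 0.050 for ZNF219 and 0.040 for PRDM8, and together with the replicate block to 0.056, 0.046 and 0.066. Without a filter, they turned to -0.0090 for ANK2, -0.022 for SEMA5B and -0.018 for CREBBP. With loess offsets they turned to 0.0049 for a CRYBG1 peak and -0.031 for SEMA5B, and at a mean count of at least 50 to 0.010 for that CRYBG1 peak. CREBBP turned to -0.012 in DESeq2, -0.049 with the replicate block and -0.085 with block and GC correction. Without 1 library in turn, the range was -0.19 to 0.25 for ANK2, -0.32 to 0.20 for CTTNBP2, -0.48 to 0.18 for MAGI2, -0.26 to 0.54 for GNAI1, -0.69 to 0.24 for TLN1 and -0.056 to 0.24 for CELF2. It was -0.73 to 0.27 and -0.16 to 0.083 for CRYBG1, -0.12 to 0.57 and -0.38 to 0.23 for LRBA, -0.10 to 0.60 for DMD, -0.43 to 0.12 and -0.41 to 0.24 for ALPK2 and -0.31 to 0.26 for FBN1. It was -0.18 to 0.0032 for ZNF219, -0.064 to 0.15 for ZNF608, -0.20 to 0.24 for SEMA5B, -0.42 to 0.18 for COL25A1, -0.73 to 0.80 for CREBBP and -0.40 to 0.21 for PRDM8. In these fits the lone library of a guide was assumed to vary like the other group.

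The filter on low counts left out 543 of the 1173 coding-exon peaks. Without it edgeR tested all 1173, called 0 and gave an unadjusted p under 0.05 to 32 with a decrease and 33 with an increase. Over all 139872 peaks in that fit, 2.00% had such a decrease and 2.33% such an increase. The median SE over the tested coding-exon peaks was 0.43 with 2 libraries per guide, and 0.27 in ANK2, the peak with the highest level.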
